A study of Mus musculus with 9 samples.

Results

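Phosphofructokinase commits glucose to glycolysis, and the PFKFB enzymes set how fast it works. The transcripts described here are those of the 3 phosphofructokinase subunits (Pfkl, Pfkm and Pfkp) and of the 4 PFKFB isozymes (Pfkfb1, Pfkfb2, Pfkfb3 and Pfkfb4). They were found by gene symbol in the deposited count table, where all 7 were present among 55401 genes, and all 7 were among the 15717 genes that passed the filter on low counts. Whole liver of 9 female mice was sequenced, with 3 libraries each from healthy mice, from mice with untreated HCC and from mice with HCC treated with miR-22. The mice entered the study at 6 weeks of age, and the labels give the wild-type genotype for them. They were FVB/N mice according to the study's methods and the growth protocol. A strain tag in the labels reads C57BL/6 instead. HCC was produced by hydrodynamic injection, a rapid tail vein injection that carries plasmids into hepatocytes. The sleeping beauty transposon plasmids encoded myr-AKT, driven by the EF1α promoter, and Nras-v12, as the study's methods give for these livers (the labels list a further β-catenin plasmid without assigning it to samples). At 1 week after the oncogenes, mice received AAV8 carrying miR-22 under the CMV promoter (miR-22-treated HCC) or blank AAV8 (untreated HCC), and livers were taken 5 weeks after the oncogenes. Healthy mice are labelled as an untreated baseline, and no harvest time is given for them, so an effect of the injections themselves cannot be told apart from that of the tumors.

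Phosphofructokinase turns fructose 6-phosphate into fructose 1,6-bisphosphate and is a tetramer of liver (Pfkl), muscle (Pfkm) and platelet (Pfkp) type subunits. Its strongest activator is fructose 2,6-bisphosphate, which also blocks the opposing enzyme of gluconeogenesis, fructose-1,6-bisphosphatase (Fbp1). Each PFKFB enzyme carries a kinase that makes fructose 2,6-bisphosphate and a phosphatase that removes it. In liver, Pfkfb1 is the isozyme that glucagon turns from kinase to phosphatase through protein kinase A, so that glucose is made rather than used. Pfkfb2 is known from heart and is activated by AKT. Pfkfb3 is an inducible isozyme whose kinase far outweighs its phosphatase, and Pfkfb4 was first found in testis and is known to be induced by hypoxia.

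The libraries held 16664659 to 23908392 counts. Levels below are counts scaled between libraries by edgeR's TMM method, called normalized counts, and errors are SD over 3 livers. As a check of the labels, Akt1, whose reads may include those of the AKT plasmid, was 14.1-fold above healthy livers in untreated HCC and 8.16-fold with miR-22. Nras was 2.44-fold and 1.91-fold higher. The 8 hepatocyte markers summed to between 2411743 and 2495135 normalized counts in healthy livers, between 962576 and 1197582 in untreated HCC and between 1451559 and 1813311 with miR-22. The 6 markers of cholangiocytes summed to 572 to 816, 64801 to 121460 and 30414 to 52662 in the same order. Alb made up most of the hepatocyte sum, with means of 1968155, 890472 and 1303934. Spp1 made up most of the cholangiocyte sum, with means of 520, 89639 and 39135, so that sum mainly follows Spp1. Krt19, another cholangiocyte marker, had means of 41.8, 76.7 and 74.9. Of the 8 striated muscle markers, none was at 0 throughout, and their sum was 2037 in healthy replicate 1 and 390 in healthy replicate 3, against 18.9 to 30.9 in the other 7 livers. Of the 7 pancreatic acinar markers, Amy2a5 was at 0 in all libraries, and the sum was 7320 in miR-22-treated replicate 2, 262 in untreated replicate 4 and 5.33 to 67.3 elsewhere. The part of these cells in the results below was not tested, and values without each of these livers are given where a call changed.

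On GRCm39, the 3 phosphofructokinase genes lie at chr10:77818084-77845922 (Pfkl, minus strand), chr15:97990451-98031417 (Pfkm, plus strand) and chr13:6629798-6698970 (Pfkp, minus strand). The PFKFB genes lie at chrX:149371225-149426874 (Pfkfb1, plus strand), chr1:130616779-130656990 (Pfkfb2, minus strand), chr2:11476244-11558888 (Pfkfb3, minus strand) and chr9:108820832-108862847 (Pfkfb4, plus strand). All 7 are protein-coding genes. The libraries carried no strand information, so reads from exons that a gene shares with a neighbor on the other strand cannot be told apart. Pfkl shared 5126 exonic bases with Cfap410, Pfkp shared 1831 with Pitrm1, Pfkfb2 shared 1839 with Yod1, Pfkm shared 391 with Senp1 and Pfkfb1 shared 187 with Apex2, counted over all annotated transcripts. Pfkfb3 and Pfkfb4 shared none with a tested gene. The changes of Cfap410, Pitrm1, Senp1 and Apex2 are not given here, and their part in the values of Pfkl, Pfkp, Pfkm and Pfkfb1 was not tested.

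miR-22, the agent given to the treated mice, is shown because its seed (bases 2 to 8, in capitals) is the part of a miRNA that pairs with target transcripts. The mature mouse sequence from RefSeq (GRCm38.p6, chr11:75463772-75463793, plus strand) has 22 bases.
mmu-miR-22-3p: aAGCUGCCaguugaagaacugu
A 3′ UTR was searched for GGCAGCT, the 7 bases complementary to this seed, in the canonical transcript of each gene on its sense strand. Of the 7 isozymes, Pfkp and Pfkfb4 each held 1 match and the other 5 held none. The shorter GCAGCT, complementary to 6 bases of the seed, was found 4 times in Pfkfb4 and once each in Pfkp, Pfkfb1 and Pfkfb3, including the sites of the longer match. Among all 13559 tested genes with a 3′ UTR, 2287 (16.9%) held at least 1 match. Both windows are shown with the match in capitals, on GRCm39 and on the strand of the transcript. The match in Pfkp starts at position 969 of a 3′ UTR of 1698 bases (window chr13:6630509-6630538, minus strand), and the match in Pfkfb4 at position 660 of 1840 bases (window chr9:108860105-108860134, plus strand).
Pfkp: gatgctcactgGGCAGCTctgctaaactct
Pfkfb4: tgtaaaggcagGGCAGCTttaggaagtacc
A match describes these letters and shows no binding, and no match says only that the 7 bases are not in this window. Pfkfb3, with the longest 3′ UTR of the 7 (3124 bases), had no match.

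The first comparison asked how livers with untreated HCC differed from healthy livers. Of the 7 isozymes, 3 rose (Pfkp, Pfkfb3 and Pfkfb4), 1 fell (Pfkfb1) and 3 did not pass the test (Pfkl, Pfkm and Pfkfb2). A gene passed at a Benjamini-Hochberg adjusted p under 0.05 in edgeR's quasi-likelihood test and a fold change over 1.5. Over all tested genes, 22.7% rose and 18.1% fell by the same rule. The median log2 fold change was 0.50 over the 7 isozymes and 0.01 over all tested genes. In bulk liver, a lower level can reflect fewer cells of a type or less RNA per cell, and these cannot be told apart.

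Pfkp, the platelet-type subunit, had 82.9, 69.7 and 77.8 normalized counts in healthy livers (replicates 1, 2 and 3) and 723, 857 and 695 in untreated HCC (replicates 2, 3 and 4). All 3 HCC livers lay far above all healthy livers. The rise was 9.85-fold (log2 fold change 3.30, SE 0.14, edgeR adjusted p = 7.6e-09). Pfkl, the subunit that predominates in liver, had 1154, 1018 and 1036 normalized counts in healthy livers and 1575, 1580 and 1390 in untreated HCC. The groups did not overlap, yet the difference of 1.42-fold (log2 fold change 0.50, SE 0.10, edgeR adjusted p = 0.00113) stayed under the fold threshold. Pfkm, the muscle-type subunit, had 384, 439 and 397 normalized counts in healthy livers and 405, 433 and 367 in untreated HCC, and the groups overlapped (log2 fold change −0.02, SE 0.12, edgeR adjusted p = 0.916). Healthy replicate 1, the liver with the most striated muscle transcripts, had the lowest Pfkm of the healthy livers.

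Pfkfb4 had the largest change of the 7. It had 51.2, 29.3 and 28.8 normalized counts in healthy livers, from 42, 24 and 27 counts, and 417, 633 and 333 in untreated HCC. The HCC livers were all higher and were themselves widely spread, with replicate 3 the highest. The rise was 12.7-fold (log2 fold change 3.66, SE 0.28, edgeR adjusted p = 4.7e-07). Pfkfb3 had 145, 104 and 210 normalized counts in healthy livers and 560, 507 and 459 in untreated HCC, a 3.30-fold rise without overlap (log2 fold change 1.72, SE 0.28, edgeR adjusted p = 2.0e-04).

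Pfkfb1, the hepatic isozyme, went the other way. It had 793, 999 and 954 normalized counts in healthy livers and 305, 268 and 426 in untreated HCC. Every HCC liver was below every healthy liver, and the level was 2.74-fold lower (log2 fold change −1.45, SE 0.18, edgeR adjusted p = 2.2e-05). Pfkfb2, the isozyme known as a target of AKT, had 394, 419 and 424 normalized counts in healthy livers and 365, 351 and 399 in untreated HCC. Its groups overlapped and did not differ by the test (log2 fold change −0.15, SE 0.14, edgeR adjusted p = 0.375).

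Marker sums moved with these groups. Of the 6 cholangiocyte markers, 5 rose in untreated HCC, of the 7 stellate cell markers 4 rose and 1 fell, and of the 4 neutrophil markers tested all 4 rose, while all 8 hepatocyte markers fell. The cholangiocyte marker that did not pass was Krt19 (log2 fold change 0.89, edgeR adjusted p = 0.151). Of 6 endothelial markers 3 fell (sums of 6391 to 8024 in healthy livers and 4034 to 5141 in untreated HCC). Of 6 macrophage markers 2 rose (6120 to 7195 and 7371 to 8017). Neither pair of sums overlapped. All 3 erythroid markers tested rose as well, and the sum of the 4 on the list was between 2094 and 3078 normalized counts in healthy livers and between 4238 and 5925 in untreated HCC. Within untreated HCC, replicate 3 had the highest Pfkp, the highest Pfkfb4, the lowest Pfkfb1, the highest cholangiocyte sum (121460, mostly Spp1) and the lowest hepatocyte sum (962576). The part of cell composition in these differences was not tested.

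**Figure D1:**
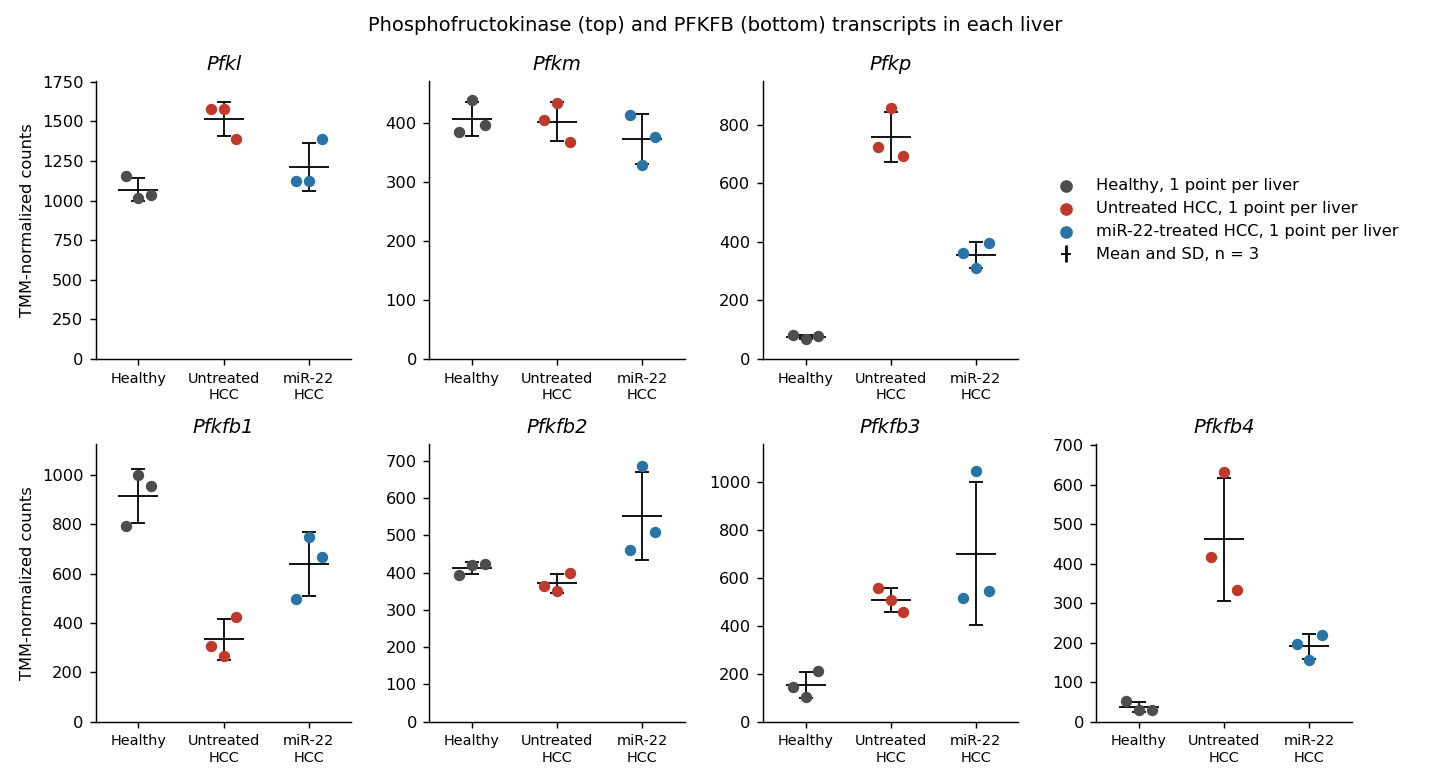
TMM-normalized counts of the 7 isozymes on linear axes from 0, 1 point per liver, with horizontal lines at the group mean and bars of 1 SD (n = 3). Pfkp and Pfkfb4 are near the axis in healthy livers, high in untreated HCC and in between with miR-22, Pfkfb1 has the opposite order, and the 3 groups of Pfkm lie between 329 and 439.

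The second comparison asked how miR-22-treated HCC differed from untreated HCC. Of the 7 isozymes, 1 rose (Pfkfb1), 2 fell (Pfkp and Pfkfb4) and 4 did not pass the test. Over all tested genes, 8.32% rose and 5.47% fell. The median log2 fold change was −0.11 over the 7 isozymes and 0.002 over all tested genes. This comparison and the first share the untreated livers, so a high or low value in those livers moves both.

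Pfkp had 363, 309 and 396 normalized counts in miR-22-treated HCC (replicates 2, 3 and 4), below the 695 to 857 of untreated HCC in every liver. It was 2.12-fold lower (log2 fold change −1.09, SE 0.12, edgeR adjusted p = 1.8e-04). Pfkfb4 had 196, 157 and 219 normalized counts, again below all untreated livers, and was 2.41-fold lower (log2 fold change −1.27, SE 0.24, edgeR adjusted p = 0.00266). These were also the 2 isozymes with a match to the 7 seed bases of miR-22 in the 3′ UTR, whereas the 6-base match was also in Pfkfb1, which rose, and in Pfkfb3, which did not pass. This was seen after their values were known and was not tested.

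Pfkfb1 had 498, 750 and 669 normalized counts in miR-22-treated HCC, above all untreated livers, and was 1.91-fold higher (log2 fold change 0.94, SE 0.18, edgeR adjusted p = 0.00334). Pfkfb2 had 462, 687 and 510, also above all untreated livers, but its 1.48-fold difference was just under the fold threshold of 1.5 (log2 fold change 0.57, SE 0.14, edgeR adjusted p = 0.0101). It passed when untreated replicate 4, miR-22-treated replicate 2 or miR-22-treated replicate 4 was left out, with log2 fold changes of 0.63, 0.68 and 0.62. Yod1, which overlaps Pfkfb2 on the other strand, was higher with miR-22 as well (log2 fold change 1.00, SE 0.19, edgeR adjusted p = 0.00307), and with unstranded libraries the reads of the pair cannot be told apart where their exons overlap. Gm29427, which shares 1262 exonic bases with Pfkfb2 on the same strand, did not pass (log2 fold change 1.05, SE 0.46, edgeR adjusted p = 0.117).

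Pfkfb3, the third isozyme that rose in untreated HCC, did not pass the test here. It had 515, 1048 and 544 normalized counts, overlapping the 459 to 560 of untreated HCC, and the difference did not pass (log2 fold change 0.46, SE 0.26, edgeR adjusted p = 0.222). The value of 1048 belonged to miR-22-treated replicate 3, and without that liver the log2 fold change was 0.06 (edgeR adjusted p = 0.889). Pfkl had 1121, 1122 and 1385 normalized counts. All 3 values were under those of untreated HCC, the nearest being 1385 against 1390, and the difference of 1.25-fold stayed under the fold threshold (log2 fold change −0.32, SE 0.10, edgeR adjusted p = 0.0375). Pfkm had 414, 329 and 377 and overlapped untreated HCC (log2 fold change −0.11, SE 0.12, edgeR adjusted p = 0.559).

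With miR-22, 6 of the 8 hepatocyte markers rose and 4 of the 6 cholangiocyte markers fell. Of the 7 stellate cell markers 2 fell and 1 rose, and their sum was between 10309 and 13064 normalized counts in untreated HCC and between 6733 and 8813 with miR-22, without overlap. The sums of the 6 endothelial markers (4034 to 5141 against 5355 to 6868) and of the 6 macrophage markers (7371 to 8017 against 8576 to 9033) were higher with miR-22, also without overlap. By the test, however, only 1 of the 6 endothelial markers rose (Clec4g) and 0 of the 6 macrophage markers did. Most of the difference in the macrophage sum was Clec4f (means of 2446 and 3260), whereas Csf1r was slightly lower (1509 and 1438). Akt1 fell too, with 31315, 32454 and 22700 normalized counts in untreated HCC and 15472, 13027 and 21424 in miR-22-treated HCC (log2 fold change −0.79, SE 0.18, edgeR adjusted p = 0.00786). Untreated replicate 4 was the liver with the lowest Akt1, the lowest Pfkp, the lowest Pfkfb4 and the highest Pfkfb1 of its group. The miR-22-treated livers did not all follow this pattern. There, replicate 4 had the highest Akt1, the highest Pfkp (396), the highest Pfkfb4 (219) and the lowest hepatocyte sum (1451559). The lowest Pfkfb1, however, was in replicate 2 (498, against 669 in replicate 4). The part of tumor cell content in the isozyme differences was not tested.

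The third comparison set miR-22-treated HCC against healthy livers. Of the 7 isozymes, 3 were higher (Pfkp, Pfkfb3 and Pfkfb4) and none was lower by the edgeR test. With DESeq2 the counts were also 3 and 0. Without the fold threshold edgeR gave 4 higher and 1 lower, at an adjusted as at an unadjusted p under 0.05, Pfkfb2 and Pfkfb1 being the additions. Over all tested genes, 16.9% were higher and 7.05% lower. Pfkp was 4.64-fold higher than in healthy livers (log2 fold change 2.21, SE 0.14, edgeR adjusted p = 3.4e-07), Pfkfb4 was 5.27-fold higher (log2 fold change 2.40, SE 0.29, edgeR adjusted p = 5.3e-05) and Pfkfb3 was 4.55-fold higher (log2 fold change 2.19, SE 0.28, edgeR adjusted p = 9.1e-05). None of the 3 overlapped the healthy livers. Pfkfb1 was 1.43-fold lower (log2 fold change −0.52, SE 0.18, edgeR adjusted p = 0.0367), under the fold threshold although its highest treated liver (750) was below the lowest healthy liver (793). It passed without healthy replicate 1 (log2 fold change −0.63) and without miR-22-treated replicate 3 (log2 fold change −0.65). Pfkfb2 was 1.34-fold higher without overlap, also under the threshold (log2 fold change 0.42, SE 0.14, edgeR adjusted p = 0.0304). Pfkl (log2 fold change 0.18, SE 0.10, edgeR adjusted p = 0.200) and Pfkm (log2 fold change −0.12, SE 0.12, edgeR adjusted p = 0.448) overlapped the healthy livers. Cell type markers differed here too. Of the 8 hepatocyte markers 4 were lower. Higher were 4 of the 6 cholangiocyte, 4 of the 7 stellate cell, all 4 neutrophil markers tested and 2 of the 6 macrophage markers. The part of cell composition in the isozyme differences was again not tested.

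**Figure D2:**
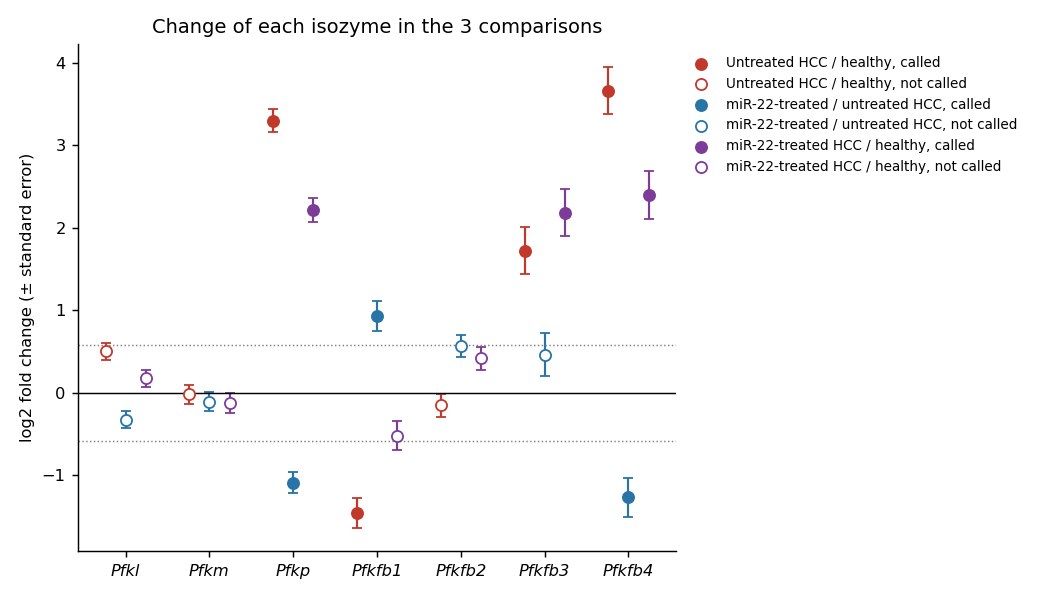
Log2 fold change of each isozyme in the 3 comparisons, with bars of 1 standard error from the fit to 9 livers. Filled points passed the adjusted p and the fold threshold, and dotted lines mark a fold change of 1.5. Pfkp and Pfkfb4 are filled in all 3 comparisons, Pfkfb3 stays at 1.72 and 2.19 above healthy livers, and Pfkm lies near 0.

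Shares within each family show how the mixture of isozymes differed. To compare genes, normalized counts were divided by the length of the canonical transcript in kilobases, since a longer transcript gives more reads. The transcripts in use in these livers were not measured. Shares are given as a description, and no test was run on them.

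In healthy livers the phosphofructokinase subunits were in the order Pfkl, Pfkm and Pfkp, without overlap between neighbors. Per kilobase they had 260.8 ± 17.96, 101.7 ± 7.17 and 17.8 ± 1.55 normalized counts. In untreated HCC, Pfkp moved to the second place with 176 ± 20.05, above Pfkm (100.6 ± 8.30) in every liver and below Pfkl (369 ± 26.4). In miR-22-treated HCC, Pfkl had 294.9 ± 37.1, and Pfkm (93.4 ± 10.6) and Pfkp (82.6 ± 10.1) overlapped, so their order was not resolved.

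As a share of the family per length, Pfkp took between 4.32% and 4.88% in healthy livers, between 25.7% and 28.7% in untreated HCC and between 16.8% and 18.3% with miR-22. The 3 ranges did not overlap. Pfkl took 68.5% ± 2.30 in healthy livers, 57.2% ± 1.58 in untreated HCC and 62.6% ± 2.87 with miR-22, and Pfkm took 26.8% ± 2.55, 15.6% ± 0.08 and 19.9% ± 2.31. The share of Pfkm was lower in HCC although its own level overlapped between the groups, since the family sum was larger. Per kilobase, that sum was 380 ± 14.4 normalized counts in healthy livers, 646 ± 50.6 in untreated HCC and 471 ± 48.8 in miR-22-treated HCC, and without division by length it was 1553 ± 59.6, 2675 ± 210 and 1939 ± 202, with no overlap between the 3 groups on either scale.

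The PFKFB isozymes in healthy livers were in the order Pfkfb1 (489 ± 57.9 normalized counts per kilobase), Pfkfb2 (134.8 ± 5.31), Pfkfb3 (27.1 ± 9.48) and Pfkfb4 (10.4 ± 3.67), again without overlap between neighbors. In untreated HCC, Pfkfb1 (178 ± 44.2), Pfkfb4 (132 ± 44.4) and Pfkfb2 (121 ± 8.15) overlapped from neighbor to neighbor, and Pfkfb3 (90.1 ± 8.98) was below the range of Pfkfb2. The range of Pfkfb4 (95.6 to 182) also overlapped that of Pfkfb3 (81.3 to 99.2), so its place among the 4 was not resolved. In miR-22-treated HCC, Pfkfb1 (341 ± 68.6) led again and Pfkfb4 (54.7 ± 8.94) was last, with Pfkfb2 (181 ± 38.7) and Pfkfb3 (124 ± 53.1) overlapping in between. This order in the HCC groups rests on the division by length. By normalized counts alone, untreated HCC had Pfkfb3 first (509), then Pfkfb4 (461), Pfkfb2 (372) and Pfkfb1 (333), and with miR-22 the mean of Pfkfb3 (702) was above that of Pfkfb1 (639). That order with miR-22 was not the same in every liver. Pfkfb3 was far above Pfkfb1 in replicate 3 (1048 against 750), barely above in replicate 2 (515 against 498) and below in replicate 4 (544 against 669). The share of Pfkfb3 in untreated HCC was 17.3% per length and 30.4% by counts, and that of Pfkfb1 was 34.0% and 20.03%.

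As a share of the family per length, Pfkfb1 took between 71.5% and 76.5% in healthy livers, between 27.0% and 42.5% in untreated HCC and between 46.8% and 52.3% with miR-22. Pfkfb4 was 1.19% to 2.48%, 17.9% to 34.3% and 5.26% to 9.97% in the same order. Neither set of ranges overlapped. Pfkfb3 was 4.11% ± 1.38 in healthy livers, 17.3% ± 2.32 in untreated HCC and 17.3% ± 3.92 with miR-22, and its ranges in the HCC groups overlapped. Pfkfb2 took between 19.65% and 21.72% in healthy livers, between 21.68% and 24.39% in untreated HCC and between 24.41% and 26.72% with miR-22. The share with miR-22 was thus above that in healthy livers without overlap. By counts, these 2 groups overlapped, at 26.2% to 28.5% in healthy livers and 26.0% to 27.6% with miR-22. The direction of the PFKFB sum depended on the scale. Per kilobase it was 661 ± 59.4 normalized counts in healthy livers (593 to 697) and lower in untreated HCC, at 522 ± 18.04 (501 to 535), without overlap. Without division by length it was 1517 ± 121 in healthy livers and 1675 ± 74.6 in untreated HCC, higher by a margin of 1617 against 1618 between the nearest livers. Pfkfb1, which fell, has the shortest canonical transcript of the 4 (1872 bases), and Pfkfb3, which rose, the longest (5644 bases). With miR-22 the sum was 701 ± 146 per kilobase and 2085 ± 501 without division by length, and replicate 3, which held the high Pfkfb3, was the highest on both scales (856 and 2642).

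**Figure D3:**
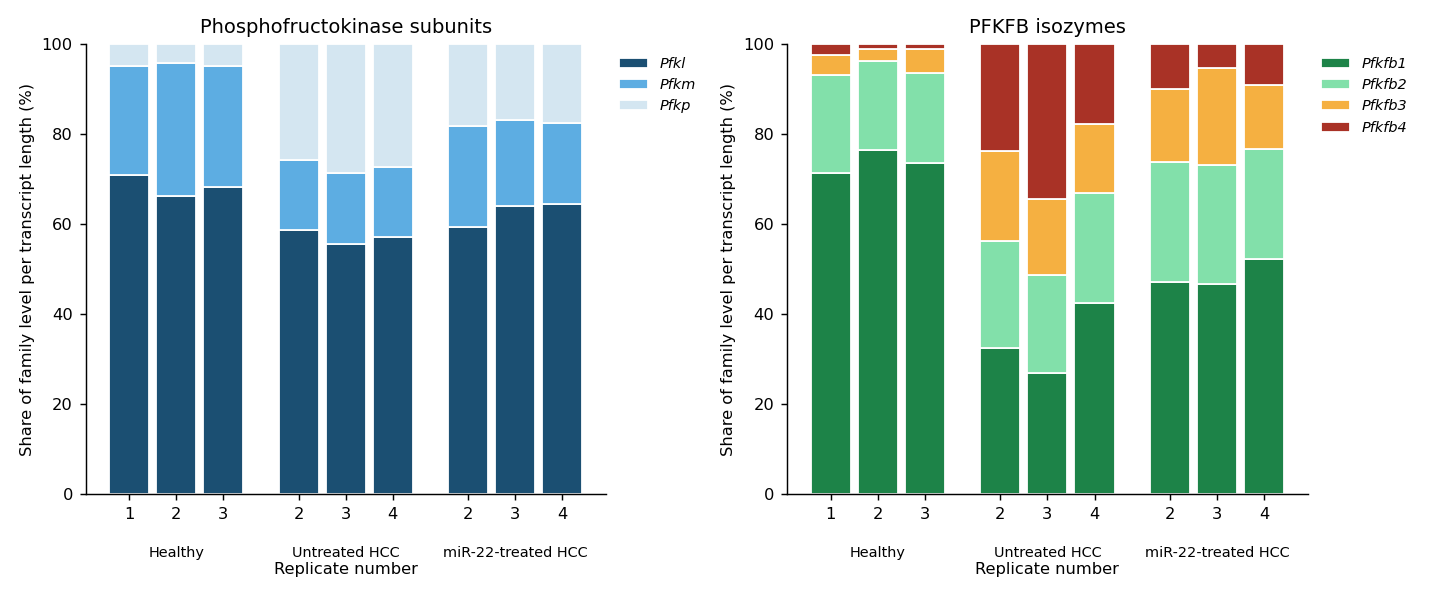
Share of each isozyme in its family, in percent of normalized counts per kilobase of canonical transcript, 1 stacked bar per liver. The segment of Pfkp is narrow in healthy livers, widest in untreated HCC and intermediate with miR-22, and the segment of Pfkfb1 shrinks from over 71% in healthy livers to 27.0% in untreated replicate 3 while that of Pfkfb4 grows to 34.3% there.

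Promoters of the 3 isozymes that rose in untreated HCC are shown because each holds the core letters bound by hypoxia-inducible factor, which is known to act on glycolytic genes. The 250 bases before each RefSeq start site (GRCm38.p6) were searched for ACGTG and GCGTG on both strands, and for the palindrome CACGTG, the E-box of factors such as MYC, which contains the first of them. All matches are in capitals. One of these motifs was in 38.6% of 32851 promoters of the same length, and CACGTG was in 6.02%.
Pfkp, chr13:6648772-6649021, minus strand: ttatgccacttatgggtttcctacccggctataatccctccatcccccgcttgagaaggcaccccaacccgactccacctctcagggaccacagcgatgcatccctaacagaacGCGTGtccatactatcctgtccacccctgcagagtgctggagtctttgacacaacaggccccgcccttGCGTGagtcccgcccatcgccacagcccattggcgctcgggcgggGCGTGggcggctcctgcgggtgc
Pfkfb3, chr2:11502091-11502340, minus strand: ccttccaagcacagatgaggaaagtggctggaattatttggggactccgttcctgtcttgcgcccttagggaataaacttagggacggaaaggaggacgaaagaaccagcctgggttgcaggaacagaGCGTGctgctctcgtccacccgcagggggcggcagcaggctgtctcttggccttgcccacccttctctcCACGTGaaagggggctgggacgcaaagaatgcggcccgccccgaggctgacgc
Pfkfb3, chr2:11553930-11554179, minus strand: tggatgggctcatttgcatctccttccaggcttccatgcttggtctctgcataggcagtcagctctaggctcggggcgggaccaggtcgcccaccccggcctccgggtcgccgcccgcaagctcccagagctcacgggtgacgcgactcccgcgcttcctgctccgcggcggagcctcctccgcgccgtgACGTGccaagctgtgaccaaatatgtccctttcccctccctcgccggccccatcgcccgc
Pfkfb4, chr9:108991652-108991901, plus strand: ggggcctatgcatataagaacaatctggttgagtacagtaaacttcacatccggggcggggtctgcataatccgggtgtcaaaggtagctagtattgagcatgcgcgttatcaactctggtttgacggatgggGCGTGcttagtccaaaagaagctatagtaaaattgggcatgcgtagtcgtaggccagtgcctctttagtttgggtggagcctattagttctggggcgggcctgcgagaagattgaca
The promoter of Pfkp held 3 matches, at 136, 68 and 23 bases before the start site, and that of Pfkfb4 held 1, at 117 bases, and neither held CACGTG. Pfkfb3 has 2 start sites in this table, with 3 matches at the first, 2 of which are the strands of 1 CACGTG, and 1 match at the other. The isozymes that did not rise held such letters too: Pfkl had 1 match, Pfkfb2 had 6 over 3 start sites and Pfkm had 5 over 3 of its 4 start sites. Pfkfb2 and Pfkm each held 1 CACGTG, counted on both strands, and overlapping windows of Pfkm count 1 of its sites again. Pfkfb1, the isozyme that fell, had 1 match in 1 of 4 start sites. Isozymes that rose and isozymes that did not both held these letters, and binding was not measured.

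Hypoxia-inducible factor and its targets were read on the same livers. Hif1a had 1344 ± 53.7 normalized counts in healthy livers, 2013 ± 214 in untreated HCC and 1849 ± 61.3 in miR-22-treated HCC. The log2 fold change in untreated HCC was 0.58 (SE 0.09, edgeR adjusted p = 1.5e-04), just under the fold threshold. With miR-22 against untreated HCC it was −0.12 (SE 0.09, edgeR adjusted p = 0.367), with overlapping groups. Of 17 other target genes of hypoxia-inducible factor, 6 rose and 4 fell in untreated HCC, with a median log2 fold change of 0.46. By the same rule, 22.7% of all tested genes rose and 18.1% fell. Ddit4, a stress-induced inhibitor of mTOR, rose (log2 fold change 3.57), whereas Bnip3, a mitophagy receptor, Vegfa, an angiogenic factor, and Pdk1, which blocks pyruvate entry into the citric acid cycle, fell (log2 fold changes −1.74, −1.54 and −1.87). Pfkfb3 and Pfkfb4 rose together with some of these targets and against others. With miR-22, 2 of the 17 rose and 3 fell, where 8.32% of all tested genes rose and 5.47% fell.

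Of 9 transcription factors of glucose metabolism, a list that includes the subunits Hif1a, Epas1 and Arnt of hypoxia-inducible factor, 1 rose, 4 fell and 4 did not pass in untreated HCC. Among all tested genes, 22.7% rose and 18.1% fell. Mlxipl (ChREBP), which senses glucose in hepatocytes, had a log2 fold change of −1.67 in untreated HCC and of 1.04 with miR-22, and passed in both. Nr1h3 (LXRα) and Srebf1 also fell in untreated HCC (log2 fold changes −0.82 and −1.35). This was the direction of Pfkfb1 and the opposite of Pfkp and Pfkfb4.

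Of 16 genes for kinases known to act on PFKFB enzymes (subunits of protein kinase A and AMPK, and the AKT kinases), 4 rose and 4 fell in untreated HCC. These counts were near the shares over all tested genes, 22.7% rising and 18.1% falling. Akt1 rose, with reads that may come in part from the AKT plasmid, and Akt2 (log2 fold change −0.63) and the AMPK subunits Prkag2 (−1.27) and Prkaa2 (−0.87) fell. With miR-22, 2 rose and 1 fell, among them Prkag2 (log2 fold change 0.59) and Akt1 (−0.79), where 8.32% of all tested genes rose and 5.47% fell. Transcript levels say nothing of the phosphorylation by which these kinases switch Pfkfb1 and Pfkfb2.

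The enzymes opposing the isozymes changed in untreated HCC as well. Fbp1, which undoes the phosphofructokinase step, had 19424 ± 407 normalized counts in healthy livers, 8625 ± 1750 in untreated HCC and 14068 ± 1836 in miR-22-treated HCC. It fell in untreated HCC (log2 fold change −1.17, SE 0.15, edgeR adjusted p = 2.6e-05) and rose with miR-22 (log2 fold change 0.71, SE 0.15, edgeR adjusted p = 0.00519), as Pfkfb1 did. Tigar, a phosphatase that lowers fructose 2,6-bisphosphate, had 209 ± 22.1, 404 ± 59.0 and 260.2 ± 44.0 normalized counts. It rose in untreated HCC (log2 fold change 0.94) and fell with miR-22 (log2 fold change −0.63), in the order of Pfkp and Pfkfb4. Fbp2, the muscle form, had at most 14 counts in any liver and was not tested.

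Around the phosphofructokinase step, 10 of 21 other glycolytic enzymes rose in untreated HCC and 3 fell, beside 22.7% and 18.1% of all tested genes. The median log2 fold change over the list was 0.57. Hkdc1, a hexokinase family member, had 9.86 ± 5.21 normalized counts in healthy livers and 653 ± 177 in untreated HCC (log2 fold change 6.05). Hk2, the hexokinase of many tumors, rose by 1.96 on the log2 scale, Pkm, the muscle-type pyruvate kinase, by 1.62 and Aldoa, aldolase A, by 1.57. These were the enzymes with the smallest p. With miR-22, Hkdc1 and Aldoa fell (log2 fold changes −1.36 and −0.76), the other 19 did not pass, and the median was −0.17. Among all tested genes, 8.32% rose and 5.47% fell with miR-22.

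Of 7 tested genes of gluconeogenesis, Fbp1 among them, 2 rose and 5 fell in untreated HCC. The shares over all tested genes were 22.7% and 18.1% there, and 8.32% and 5.47% with miR-22. Pck1, which makes phosphoenolpyruvate in the cytosol, had a log2 fold change of −2.60 and Slc37a4, the glucose 6-phosphate transporter, of −1.58, while the mitochondrial Pck2 rose (1.97). With miR-22, 4 rose and 1 fell, led by Pck1 (log2 fold change 2.74) and G6pc (2.75), the catalytic subunit of glucose-6-phosphatase. Of 5 transporters of glucose and lactate, the lactate carriers Slc16a1 and Slc16a3 rose in untreated HCC (log2 fold changes 1.22 and 2.39). With miR-22, the glucose carrier Slc2a1 and Slc16a3 fell (log2 fold changes −0.75 and −1.08).

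**Figure D4:**
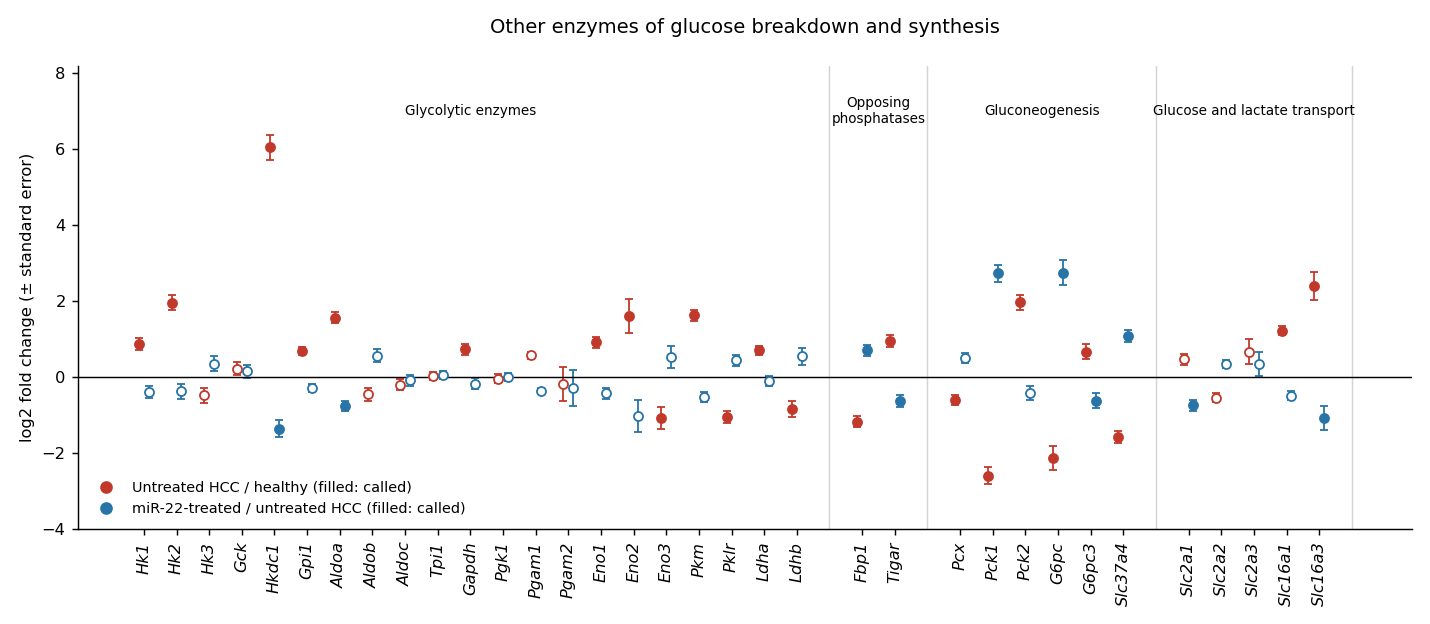
Log2 fold change of other tested enzymes and carriers of glucose metabolism in untreated HCC against healthy livers and in miR-22-treated against untreated HCC, with bars of 1 standard error and filled points for genes that passed the test. Of the 21 glycolytic enzymes, 10 filled points lie above 0 and 3 below 0 in untreated HCC, and 2 (Hkdc1 and Aldoa) lie below 0 with miR-22. Pck1, G6pc, Slc37a4 and Fbp1 are filled in both comparisons, below 0 in untreated HCC and above 0 with miR-22.

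For each isozyme, the 3 other tested genes with the most similar pattern were taken by Pearson's r of log2 normalized expression over the 9 livers. These values follow the differences between the 3 groups and are given as a description. Pfkp was most like Col4a2 (r = 0.997), a collagen chain, and Mcam and Glis2 (both r = 0.997). Pfkfb4 was most like Kirrel (r = 0.997), Sh3bgrl3 (r = 0.996) and Sox9 (r = 0.995), the last of which is one of the 6 cholangiocyte markers above. Between Pfkp and Pfkfb4 themselves r was 0.99, and between each of them and Pfkfb1 it was −0.90 and −0.92.

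Pfkfb1 was most like Gm29216 (r = 0.990), Aqp11 (r = 0.989), a water channel, and Usp15 (r = 0.989). Pfkl was most like Plscr3 (r = 0.985), Dynll1 (r = 0.981) and Eif2ak3 (r = 0.980), the kinase PERK of the unfolded protein response. Pfkfb3 was most like Ifrd1 (r = 0.964), Gm13241 (r = 0.963) and Mis18a (r = 0.962), and Pfkfb2 was most like Strbp (r = 0.967), Lpin1 (r = 0.954) and Tob2 (r = 0.944). Pfkm, which varied least between groups, was most like Odc1 (r = 0.945), Tjp1 (r = 0.937) and Trim13 (r = 0.925). Pfkm and Pfkfb2 correlated with r = −0.74, the most negative value of Pfkm with another isozyme.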

How the data were processed

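Whole liver RNA of 9 mice was sequenced as non-directional libraries. The authors ran Salmon on GRCm39 and imported its estimates by gene through tximport. The deposited values are expected counts given as whole numbers for 55401 genes, not normalized, and the labels name FastQC 0.11.7 and DESeq2 1.18. A deposited table of normalized values was not used. The labels number libraries within a group without naming animals, so p-values measure the spread between these libraries. The dose of virus differs between the labels and the study's methods and is not given here.

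In R 4.3.3, edgeR 4.0.16 (TMM, filterByExpr, two-sided quasi-likelihood F test) was fitted to all 9 libraries and 3 groups at once, without covariates. Genes with an adjusted p under 0.05 (Benjamini-Hochberg, 15717 genes) and a fold change over 1.5 were called. The common dispersion was 0.0206, and pairs of libraries of one group differed beyond counting error (chi-square over degrees of freedom between 6.59 and 31.3), so none was the same library deposited again. The fit was tested on simulated counts. Alternatives were DESeq2 1.42.0, 2 other scalings, 2 other filters, fits to the 2 groups compared, a replicate block, each liver left out and no fold threshold. Transcript lengths, 3′ UTRs and positions came from GENCODE vM39 on GRCm39, a later annotation release than the study's methods name. Promoters and the miRNA came from RefSeq (GRCm38.p6).

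All 7 isozymes were named, with up to 4 genes of smallest p per list, Fbp1, Fbp2, Tigar, Akt1, Nras, and the 3 genes most like each isozyme. Members and lists were chosen with earlier results of these data known. The symbols of 2 listed genes were matched through an older name.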

Additional observations from a re-analysis of the deposited data

How the results depend on the processing

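Of 357 recalculated log2 fold changes of the 7 isozymes, 342 kept their direction and their side of the threshold, 11 newly passed and 0 were lost. These counts include the setting without a fold threshold, which reuses the main fit. No call could be lost in that setting, and isozymes held back by the fold threshold alone had to pass there. The other 4 changed sign, all of them Pfkm in untreated HCC against healthy livers, which did not pass in any setting: 0.031 with upper-quartile normalization, 0.030 with at least 10 counts in every library, 0.034 without healthy replicate 2 and 0.045 without untreated replicate 4, within a range of −0.071 to 0.045 when each liver was left out. Without a fold threshold, 5 isozymes passed in place of 3 in miR-22-treated against untreated HCC and in miR-22-treated HCC against healthy livers, and over all genes 3777 in place of 2167 and 5732 in place of 3772. Leaving out each liver in turn gave 1433 to 2660 genes for miR-22-treated against untreated HCC, the lowest without miR-22-treated replicate 3, and 3 to 4 isozymes. Shares by counts rather than per length differed because transcripts differ in length. Per length against by counts, they were 15.6% against 15.03% for Pfkm in untreated HCC, 17.5% against 18.3% for Pfkp with miR-22 and 20.5% against 27.2% for Pfkfb2 in healthy livers. Pfkfb1 had 73.8%, 34.0% and 48.8% per length against 60.2%, 20.03% and 30.9% by counts in healthy livers, untreated HCC and miR-22-treated HCC, and Pfkfb3 had 4.11%, 17.3% and 17.3% against 10.1%, 30.4% and 32.8%.

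Same-numbered untreated and miR-22-treated livers did not deviate together (correlations over genes of −0.12, −0.13 and −0.24), so the numbers were not taken as pairs. With the replicate block, 1745 genes were called in that comparison and the same 3 isozymes, Pfkp, Pfkfb1 and Pfkfb4, with log2 fold changes of −1.09, 0.95 and −1.23. The block also called Pfkfb1 in miR-22-treated HCC against healthy livers (log2 fold change −0.73, edgeR adjusted p = 0.0258), and it changed no other call of an isozyme. Depth limited Pfkfb4 most, with 24 to 42 counts per healthy liver.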
